A study of Mus musculus with 12 samples.

Results

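Bipolar cells are the interneurons that carry the signal of rods and cones from the outer to the inner retina, and 9 genes used as their markers were followed here through 12 retinal RNA libraries of mouse pups. The genes were taken by symbol from the deposited count table: Prkca, Pcp2, Trpm1, Grm6, Vsx1, Cabp5, Scgn, Grik1 and Otx2. All 9 were among the 35976 genes listed, and each had at least 10 reads in every library, as did 11039 genes of the table. The series holds retinas in normoxia (room air) and retinas of the oxygen-induced retinopathy (OIR) model. The latter were collected 3 days after the pups had returned from hyperoxia to room air. Both conditions are present in mice labelled C57BL/6 (called WT here) and in mice labelled Caspase1 knockout, with 3 libraries in each of the 4 groups. The paper describes the sequencing of C57BL/6 retinas only. For the C57BL/6 pups the methods give 75% oxygen from postnatal day 7 to postnatal day 12 and collection at postnatal day 15. The age and oxygen level of the pups labelled Caspase1 knockout (called Casp1 KO here), the kind of Casp1 allele and the number of animals in each library are not given in the sources used here, so that p-values measure the spread between libraries, which may be technical.

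The reads of Casp1 went against the labels of genotype. The 6 libraries labelled WT held 0 to 3 reads of Casp1 and the 6 libraries labelled Casp1 KO held 10 to 45. Every direction between genotypes given here is therefore one between libraries labelled Casp1 KO and libraries labelled WT. Reads on genes ran from 3391203 to 5657873 per library in 11 of the libraries and reached 22815830 in WT normoxia replicate 2. WT OIR replicate 3 differed most from the other libraries of its group, where the chi-square statistic of its gene counts, divided by the degrees of freedom, was 15.2 and 14.2 against them and 3.49 to 9.46 for the other pairs of replicates. Sag and Nrl, which mark the photoreceptors of the labelled tissue, stood at 6114 to 9081 CPM and 1729 to 2574 CPM (reads of a gene scaled to the size of the library) in the 12 libraries.

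Each bipolar cell belongs to a rod type or to cone types, and the cone types are split into ON and OFF cells by their answer to light. In rod bipolar and ON cone bipolar cells, glutamate from photoreceptors acts on the receptor mGluR6, a product of Grm6, which holds the channel TRPM1 closed through a G protein in the dark. OFF cone bipolar cells use ionotropic glutamate receptors, among them one with the subunit encoded by Grik1. Prkca (protein kinase C alpha) and Pcp2 (a modulator of G proteins) mark rod bipolar cells, Pcp2 also some ON cone bipolar cells. Scgn (secretagogin) and Cabp5 encode calcium-binding proteins of bipolar cells, Vsx1 encodes a homeodomain factor of cone bipolar cells, and Otx2 encodes a homeodomain factor that bipolar cells share with photoreceptors and with the retinal pigment epithelium.

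In GRCm38, by the GENCODE vM21 annotation, Prkca lies at chr11:107933387-108343928, Pcp2 at chr8:3623371-3625545, Trpm1 at chr7:64153835-64269775, Grm6 at chr11:50850685-50866208, Vsx1 at chr2:150680702-150689360, Cabp5 at chr7:13398132-13408887, Scgn at chr13:23953456-23991214, Grik1 at chr16:87895900-88290265 and Otx2 at chr14:48657677-48673819. All 9 are annotated as protein coding. The library kit reads the 3′ ends of transcripts with a poly(A) tail, so the end of the gene is what was counted. At that end, Pcp2 is covered by Pet100 on the other strand, and no other member has an annotated gene over its 3′ end. The strand setting of the counting is not given, so that the effect of this overlap on the reads of Pcp2, 16 to 100 per library, is not known.

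OTX2 and its relative CRX bind DNA at the core TAATCC, and the hypoxia-inducible factors at ACGTG or GCGTG. The 250 bases before the transcription start are shown for Scgn, Trpm1 and Otx2, 3 genes that changed between groups and whose window from RefSeq (GRCm38.p6) does not reach into an exon of the gene. Letters in capitals mark either core on either strand, overlapping matches merged. The Scgn window is chr13:23991215-23991464 on the minus strand, that of the first start of Trpm1 is chr7:64153585-64153834 on the plus strand, and that of the first start of Otx2 is chr14:48667645-48667894 on the minus strand.
Scgn: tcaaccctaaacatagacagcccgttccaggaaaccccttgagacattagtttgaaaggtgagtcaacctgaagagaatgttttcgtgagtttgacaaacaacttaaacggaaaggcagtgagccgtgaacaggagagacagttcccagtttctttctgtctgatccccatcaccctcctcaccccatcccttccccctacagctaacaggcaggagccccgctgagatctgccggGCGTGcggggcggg
Trpm1: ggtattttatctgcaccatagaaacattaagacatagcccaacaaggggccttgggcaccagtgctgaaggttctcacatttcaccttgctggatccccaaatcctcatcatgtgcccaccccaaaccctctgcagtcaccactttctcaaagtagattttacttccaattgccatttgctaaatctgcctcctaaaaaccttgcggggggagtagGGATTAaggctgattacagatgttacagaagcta
Otx2: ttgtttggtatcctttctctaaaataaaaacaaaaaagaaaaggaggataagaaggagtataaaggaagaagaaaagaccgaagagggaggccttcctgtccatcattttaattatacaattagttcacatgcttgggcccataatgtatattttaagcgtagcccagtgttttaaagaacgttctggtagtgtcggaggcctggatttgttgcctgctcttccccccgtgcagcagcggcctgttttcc
The Trpm1 window holds TAATCC 1 time, read on the other strand as GGATTA, and the Scgn window holds GCGTG 1 time. The first Otx2 window holds neither. RefSeq promoters were found for 8 of the 9 members, with 15 starts in all, and Grik1 had no entry. TAATCC was found before 3 of the 15 starts (one each of Trpm1, Cabp5 and Otx2) and before 6.3% of the 32851 promoters of the table. ACGTG or GCGTG was found before 5 of the 15 starts and before 38.6% of all promoters. These matches are a description of the letters only.

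In the WT libraries, Scgn was lower in OIR than in normoxia, and the other 8 markers did not pass the test. Levels are CPM scaled by the TMM method over the 12 libraries. Scgn stood at 79.9, 80.7 and 93.1 CPM in WT normoxia replicates 1, 2 and 3 and at 64.9, 57.8 and 36.2 CPM in WT OIR. All 3 OIR libraries lay below all 3 normoxia libraries. The means were 84.6 ± 7.37 CPM (SD, n = 3) in normoxia and 53.0 ± 14.97 CPM (SD, n = 3) in OIR, and the fitted level was 1.61-fold lower in OIR. For Scgn the fitted change was -0.69 on the log2 scale with a standard error of 0.17 and an adjusted p of 0.00209 by the quasi-likelihood test of edgeR. Without WT normoxia replicate 3 the adjusted p was 0.06, with a log2 fold change of -0.62.

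Thus 1 of the 9 members was called at an adjusted p under 0.05, where 3.88% of the 22853 genes tested were called. Here and below, such shares include many genes with fewer than 10 reads in some library, unlike the members. The shares were not computed for genes of like depth. The fitted change was negative for 8 of the 9 members, with a median of -0.18 on the log2 scale. The median was 0.037 over all genes tested and -0.019 over genes with at least 10 reads in every library. Grik1, the glutamate receptor subunit of OFF cone bipolar cells, had 45.8, 60.3 and 55.0 CPM in WT normoxia and 40.9, 46.0 and 23.99 CPM in WT OIR. The highest OIR library lay just above the lowest normoxia library. Its log2 fold change of -0.56 (standard error 0.19) had an adjusted p of 0.0701 with edgeR, and 0.0336 without WT OIR replicate 2. Otx2 had the one positive value, 0.24 on the log2 scale.

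The CPM of the OIR and normoxia libraries did not overlap for 2 of the 9 members in WT, as for 16.7% of all genes tested. They were Otx2, higher in OIR as were 8.53% of all genes, and Scgn, lower as were 8.16%. For the genes of the ON pathway the libraries of both conditions overlapped. Trpm1 had 375, 403 and 396 CPM in WT normoxia and 443, 377 and 296 CPM in WT OIR, so that the OIR libraries lay on both sides of those in normoxia. The log2 fold changes of Trpm1, Grm6 and Prkca were -0.084, -0.051 and -0.13, with adjusted p of 0.792, 0.927 and 0.669 from edgeR. Without WT OIR replicate 3 that of Trpm1 was 0.057. Cabp5 (-0.18), Vsx1 (-0.42) and Pcp2 (-0.46) had adjusted p of 0.669, 0.529 and 0.743.

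**Figure D1:**
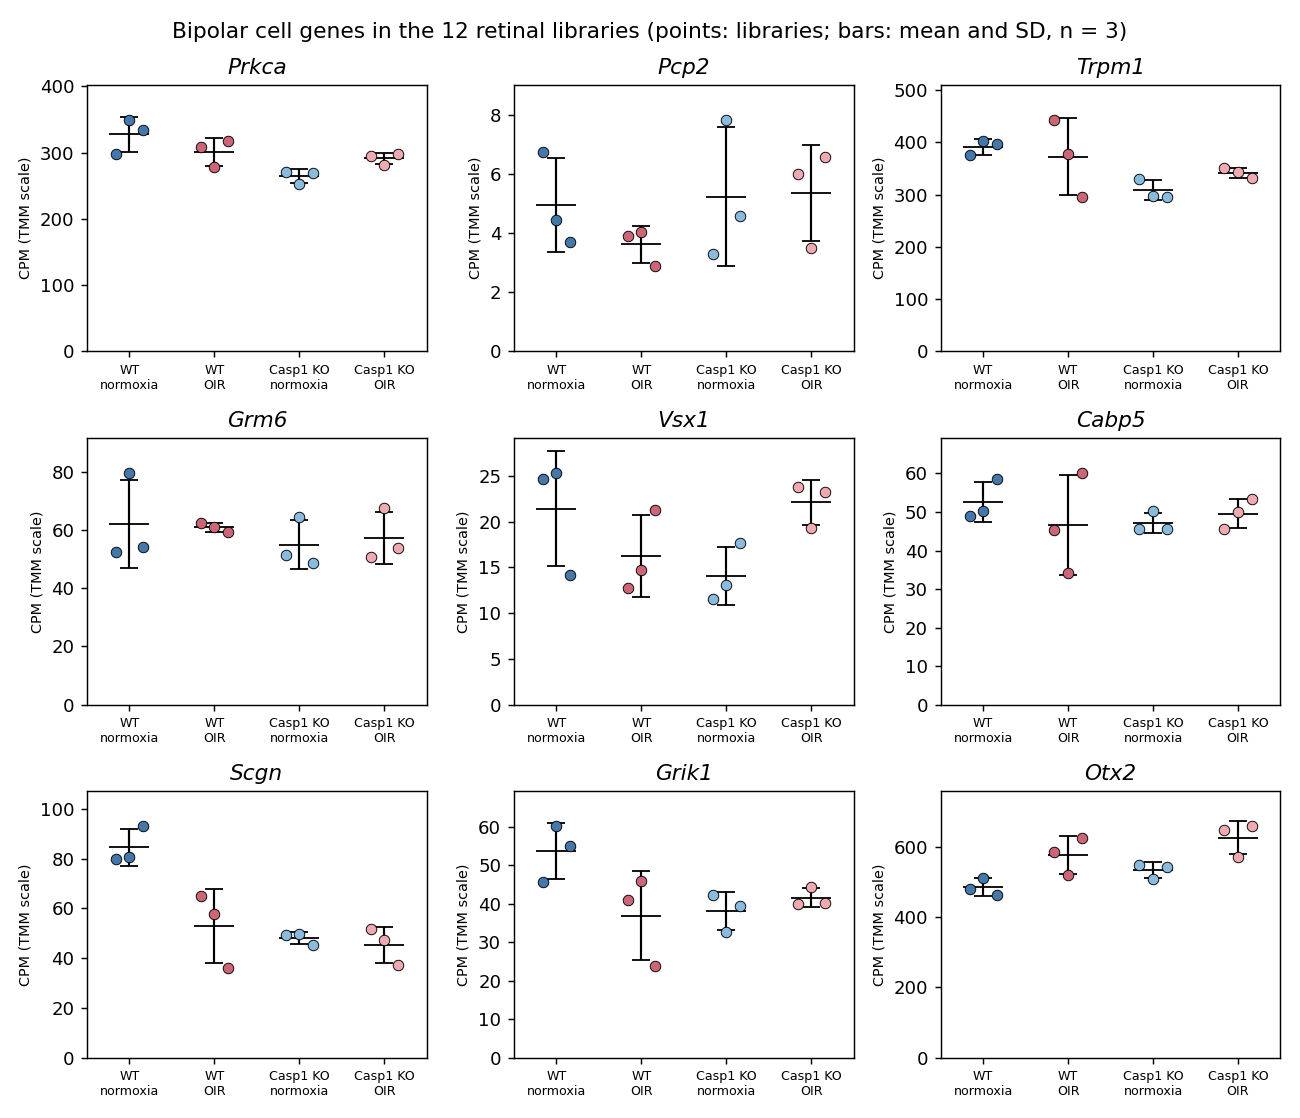
Level of each of the 9 bipolar cell genes in CPM on the TMM scale (linear axis from 0), by group as labelled, with a point for each library and bars for the mean and SD of 3 libraries. Scgn stands at 79.9 to 93.1 CPM in WT normoxia and at 36.2 to 64.9 CPM in the 9 other libraries.

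Markers of other cell types, lower or higher, changed in the same comparison as Scgn. Amacrine cells are inhibitory interneurons beside the bipolar cells. The summed level of their 6 markers was 565 to 611 CPM in WT normoxia and 364 to 454 CPM in WT OIR, all 6 with a negative change and 4 of them called lower (Tfap2b, Gad1, Gad2 and Slc32a1; the marker genes here are named after their values were seen), and none of the 6 was at 0 reads in any library. The 6 markers of Müller glia, the supporting glia of the retina, summed to 2089 to 2253 CPM in WT normoxia and 1520.3 to 1576 CPM in WT OIR, with 3 of 6 called lower (Rlbp1, Glul and Aqp4). Within that list Sox9 (68.0 to 77.8 CPM in normoxia, 88.2 to 103.1 CPM in OIR) and Slc1a3 (144.6 to 161.3 CPM, 184.3 to 200.8 CPM) lay higher in OIR without overlap and were not called. Of the 6 ganglion cell markers, all with a negative change, 4 were called lower (Pou4f1, Sncg, Slc17a6 and Thy1), and their sum was 748 to 779 CPM in normoxia and 450.0 to 565 CPM in OIR. Of the 4 horizontal cell markers 1 was called lower (Calb1), of the 6 cone markers 1 lower (Arr3) and of the 5 endothelial markers 1 higher (Pecam1). The part of these cells in the change of Scgn was not tested. In whole retina, fewer cells of a type and less RNA per cell cannot be told apart.

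In the libraries labelled Casp1 KO, Otx2 rose in OIR, and Scgn stayed within the spread of its replicates. Otx2 stood at 549, 509 and 542 CPM in Casp1 KO normoxia and at 646, 572 and 658 CPM in Casp1 KO OIR. Each OIR library lay above each normoxia library. The means were 533 ± 21.5 CPM (SD, n = 3) and 625 ± 46.9 CPM (SD, n = 3), and the fitted level was 1.18-fold higher in OIR. The fit by edgeR gave Otx2 a change of 0.24 on the log2 scale with a standard error of 0.0754 and an adjusted p of 0.0328. The call was lost with DESeq2's size factors (adjusted p = 0.0504), with all 12 libraries in one fit (0.305) and without each library in turn other than Casp1 KO OIR replicate 2 (0.0623 to 0.241), while the log2 fold change stayed between 0.19 and 0.29.

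In the libraries labelled WT, Otx2 had 480.4, 511 and 463 CPM in normoxia and 583, 519.6 and 625 CPM in OIR. Here too the groups did not overlap, and the log2 fold change was 0.24 (standard error 0.12), with an adjusted p of 0.387 from edgeR. The difference between these responses, Casp1 KO minus WT, was -0.018 on the log2 scale, with a 95% interval from -0.30 to 0.26. Otx2 is also a gene of the pigment epithelium, and the 6 markers of that tissue summed to 212 to 263 CPM in Casp1 KO normoxia and 374 to 393 CPM in Casp1 KO OIR. In WT they summed to 213 to 245 CPM in normoxia and 211 to 308 CPM in OIR. Of the 6, 2 were called higher in Casp1 KO OIR (Rpe65 and Pmel), and in WT 1 was called higher (Pmel) and 1 lower (Lrat). Best1 had no reads in 3 of the 12 libraries, all labelled Casp1 KO. The photoreceptor genes Nrl and Sag were called higher and lower, at 0.40 and -0.26 on the log2 scale, and of the 6 Müller glia markers 5 were called higher, with a sum of 1506 to 1644 CPM in normoxia and 2066 to 2172 CPM in OIR. Of the 6 ganglion cell markers 3 were called lower (Sncg, Slc17a6 and Thy1), of the 4 horizontal cell markers 1 lower (Calb1), and of the 6 cone markers 2 higher (Opn1sw and Pde6h) and 1 lower (Arr3). These genes were named after their values were seen, and their part in the level of Otx2 was not tested.

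The call of Otx2 was 1 of 9 members, beside 4.64% of the 22387 genes tested. The fitted change was positive for 8 of the 9 members, with a median of 0.13 on the log2 scale. The median was -0.0020 over all genes tested and 0.016 over genes with at least 10 reads in every library. For 4 members the libraries of the groups did not overlap (Prkca, Trpm1, Vsx1 and Otx2), as for 17.1% of all genes tested. All 4 were higher in OIR, as were 8.56% of all genes, and 0 were lower, as were 8.58%. Vsx1 had 11.5, 13.1 and 17.6 CPM in Casp1 KO normoxia and 23.8, 19.3 and 23.2 CPM in Casp1 KO OIR. It thus lay higher in 3 of 3 OIR libraries, by 0.67 on the log2 scale (SE 0.26), at adjusted p = 0.156 in edgeR. Prkca and Trpm1 had log2 fold changes of 0.15 and 0.16, with adjusted p of 0.4505 and 0.381. For Scgn edgeR gave -0.070 with a standard error of 0.17 and an adjusted p of 0.878, and without Casp1 KO OIR replicate 3 it was 0.042.

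**Figure D2:**
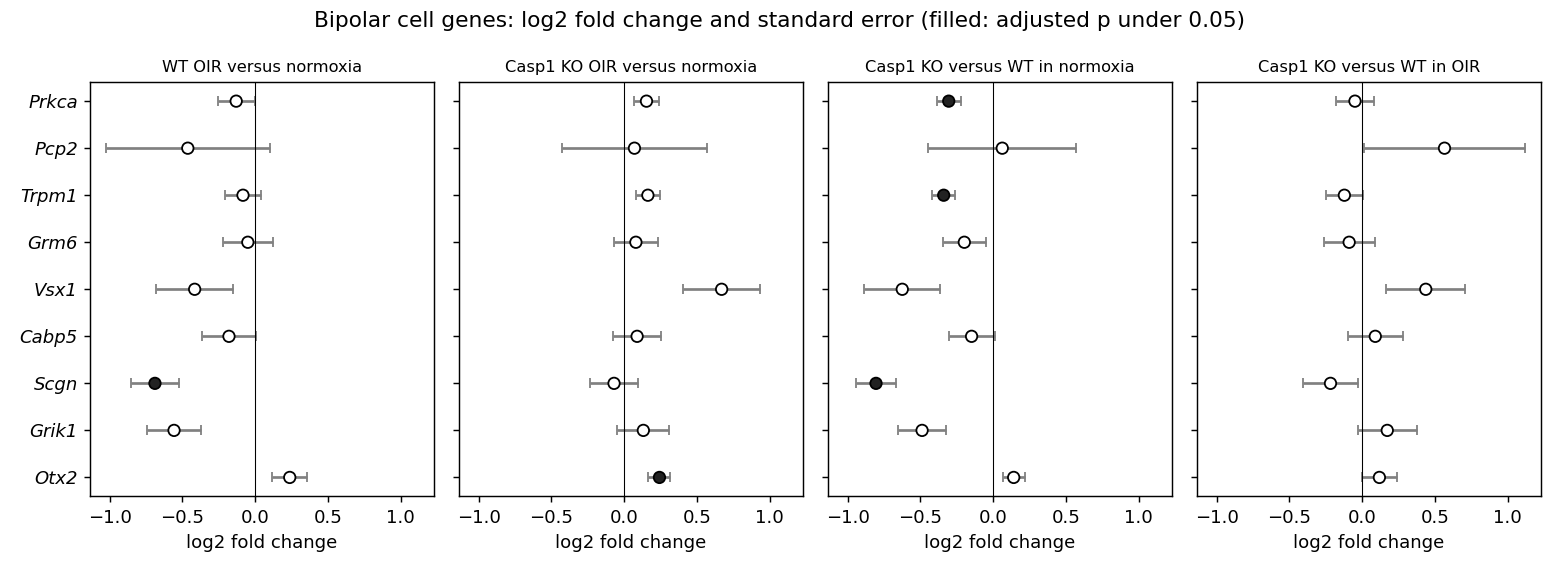
Fitted log2 fold change (points) with its standard error (bars) for the 9 genes in the 4 comparisons of groups as labelled, filled where the adjusted p was under 0.05. Filled points are Scgn in WT OIR, Otx2 in Casp1 KO OIR, and Scgn, Trpm1 and Prkca between the genotypes in normoxia.

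In normoxia, Scgn, Trpm1 and Prkca were lower in the libraries labelled Casp1 KO than in those labelled WT, by 1.75-fold, 1.27-fold and 1.24-fold in the fit. Scgn had 49.2, 49.7 and 45.4 CPM in Casp1 KO normoxia, below every WT normoxia library. By edgeR the change of Scgn was -0.80 on the log2 scale with a standard error of 0.14 and an adjusted p of 5.316e-06, and it kept an adjusted p under 0.05 in each alternative fit and without each library in turn, up to 0.00124. Trpm1, the cation channel of ON bipolar cells, had 330.2, 298 and 296 CPM in Casp1 KO normoxia, again below the 375 to 403 CPM of WT normoxia. Its change was -0.34 on the log2 scale, with a standard error of 0.0804, at adjusted p = 0.00477 in edgeR. Prkca had 271, 252 and 269.7 CPM in Casp1 KO normoxia and 298, 349.7 and 335 CPM in WT normoxia, with no overlap. The change of Prkca was -0.31 with a standard error of 0.0832, and edgeR gave it an adjusted p of 0.0304.

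The calls of Trpm1 and Prkca depended on the fit. With all 12 libraries in one fit their adjusted p was 0.144 and 0.318. The call of Trpm1 was lost without Casp1 KO normoxia replicate 2 (adjusted p = 0.0644) or replicate 3 (0.107). That of Prkca was lost without WT normoxia replicate 2 (0.226) or replicate 3 (0.14), without Casp1 KO normoxia replicate 1 (0.0545), 2 (0.238) or 3 (0.117), with the filterByExpr filter (0.0516) and with the replicate number as a block (0.0575). Over all these fits the log2 fold change of Trpm1 lay between -0.39 and -0.31 and that of Prkca between -0.37 and -0.25.

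These were 3 of 9 members, beside 1.04% of the 22480 genes tested, many of which had fewer reads than the members. All 3 were lower in Casp1 KO, as were 0.56% of all genes, and 0 were called higher, as were 0.476%. The fitted change was negative for 7 of the 9, with a median of -0.31 on the log2 scale. The median was 0.0062 over all genes tested and -0.014 over genes with at least 10 reads in every library. Grik1 also lay lower without overlap, at 42.3, 32.8 and 39.4 CPM in Casp1 KO normoxia, but its log2 fold change of -0.49 (standard error 0.16) had an adjusted p of 0.149 from edgeR. So 4 members did not overlap between these groups, as did 12.4% of all genes tested, with 4 lower, beside 6.53% of all genes, and 0 higher, beside 5.91%. Grm6, the receptor that acts upstream of TRPM1, had 51.4, 64.5 and 48.8 CPM in Casp1 KO normoxia and 52.4, 79.6 and 54.1 CPM in WT normoxia, and the groups overlapped. The log2 fold change of Grm6 was -0.20 (adjusted p = 0.692, edgeR), and without WT normoxia replicate 2 it was 0.044. The same WT normoxia libraries enter this comparison and that of OIR with normoxia in WT, so the lower level of Scgn in both rests in part on shared libraries.

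Glial, amacrine, horizontal cell and pigment epithelium markers differed between the same groups, and not all in the same direction. The 6 markers of Müller glia summed to 1506 to 1644 CPM in Casp1 KO normoxia and 2089 to 2253 CPM in WT normoxia, with 4 of 6 called lower (Rlbp1, Glul, Dkk3 and Aqp4, named after their values were seen). Amacrine markers summed to 429 to 484 CPM in Casp1 KO normoxia, with 1 of 6 called lower (Tfap2b), and of the 4 horizontal cell markers 1 was called lower (Calb1). Of the 6 pigment epithelium markers 1 was called higher and 0 lower, and 3 had a negative change. Among them Pmel (42.1 to 49.5 CPM in Casp1 KO normoxia, 19.5 to 33.9 CPM in WT normoxia) lay higher without overlap. So did Tyrp1 (16.2 to 21.5 CPM, 8.53 to 14.6 CPM), both also named after their values were seen. What part these cells have in the levels of Scgn, Trpm1 and Prkca was not tested.

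In OIR, no member was called between the libraries labelled Casp1 KO and those labelled WT. The count was 0 of 9 with edgeR's quasi-likelihood test, 0 of 9 with DESeq2 and 0 of 9 at an unadjusted p under 0.05, beside 0.575% of the 22774 genes tested at the adjusted and 8.36% at the unadjusted threshold. In 0 of 9 members the groups did not overlap, where this was so for 11.9% of all genes, 5.41% higher and 6.52% lower in Casp1 KO. Scgn had 51.6, 47.3 and 37.4 CPM in Casp1 KO OIR, within the range of WT OIR. Its log2 fold change was -0.22, with a 95% interval from -0.58 to 0.15. Vsx1 had 12.7, 14.7 and 21.3 CPM in WT OIR, and 2 of the 3 Casp1 KO OIR libraries lay above them (a change of 0.44 on the log2 scale, SE 0.27, adjusted p = 0.688 from edgeR).

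The response to OIR was compared between genotypes by the interaction term of a fit to all 12 libraries. No member passed, with 0 of 9 by edgeR and 0 of 9 by DESeq2, beside 1.13% of the 24484 genes tested, 0.604% higher and 0.527% lower. At an unadjusted p under 0.05 there were 3 of 9, beside 9.77% of all genes. They were Vsx1 (1.06 with a standard error of 0.38, adjusted p = 0.185), Grik1 (0.67, adjusted p = 0.272) and Scgn (0.59, adjusted p = 0.279). Without WT OIR replicate 3, Vsx1 passed with an adjusted p of 0.0402 and a value of 1.31. The difference was positive, Casp1 KO minus WT, for 8 of 9 members, with a median of 0.26 on the log2 scale. The median was -0.039 over all genes tested and 0.026 over genes with at least 10 reads in every library. The signs of the members come from the same libraries as the responses in WT and in Casp1 KO given above. They add no separate evidence.

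Over the 4 groups, Scgn was highest in WT normoxia, and the ranges of WT OIR (36.2 to 64.9 CPM), Casp1 KO normoxia (45.4 to 49.7 CPM) and Casp1 KO OIR (37.4 to 51.6 CPM) overlapped. For Prkca the order of the means was WT normoxia, WT OIR (309, 278 and 318 CPM), Casp1 KO OIR (295, 282 and 298 CPM) and Casp1 KO normoxia, and only the last of these neighbours lay apart. For Trpm1 the order was the same, with WT OIR spanning the ranges of both neighbours and Casp1 KO OIR (351, 343 and 332 CPM) just above Casp1 KO normoxia. Otx2 was highest in Casp1 KO OIR, followed by WT OIR, Casp1 KO normoxia and WT normoxia, and each neighbouring pair in that order overlapped. Vsx1 was highest in Casp1 KO OIR, followed by WT normoxia (24.7, 25.3 and 14.1 CPM), WT OIR and Casp1 KO normoxia, with overlap between neighbours. Grik1 was highest in WT normoxia, and Casp1 KO OIR (40.02, 44.5 and 40.3 CPM), Casp1 KO normoxia and WT OIR overlapped one another. Grm6 (48.8 to 79.6 CPM), Cabp5 (34.2 to 60.2 CPM) and Pcp2 (2.91 to 7.84 CPM) overlapped between all groups.

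The reads of a member per 100 reads of Otx2 in the same library need no scaling between libraries. Scgn gave 15.8 to 20.1 reads per 100 Otx2 reads in the WT normoxia libraries (median 16.6), and at most 11.1 in each of the other 9. Grik1 gave 9.54 to 11.9 in WT normoxia and at most 8.86 elsewhere, Trpm1 78.0 to 85.7 and at most 75.9, and Prkca 62.1 to 72.4 and at most 53.4. For these 4 genes WT normoxia did not overlap any other group in this ratio. The ratio was not computed for all genes, so no share over all genes stands beside this count. In CPM, WT normoxia and WT OIR overlapped for Trpm1 (375 to 403 and 296 to 443) and Prkca (298 to 349.7 and 278 to 318). They also overlapped for Grik1 (45.8 to 60.3 and 23.99 to 46.0). In reads per 100 Otx2 reads, Grm6 and Vsx1 in WT normoxia overlapped each other group. Cabp5 in WT normoxia (9.81 to 12.6) overlapped Casp1 KO normoxia (8.31 to 9.88). It lay above WT OIR (6.59 to 9.63) and Casp1 KO OIR (7.06 to 8.74). Pcp2 in WT normoxia (0.799 to 1.40) lay above WT OIR (0.465 to 0.78) and overlapped both Casp1 KO groups. Since Otx2 itself lay lowest in WT normoxia, these shares hold the levels of both genes.

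**Figure D3:**
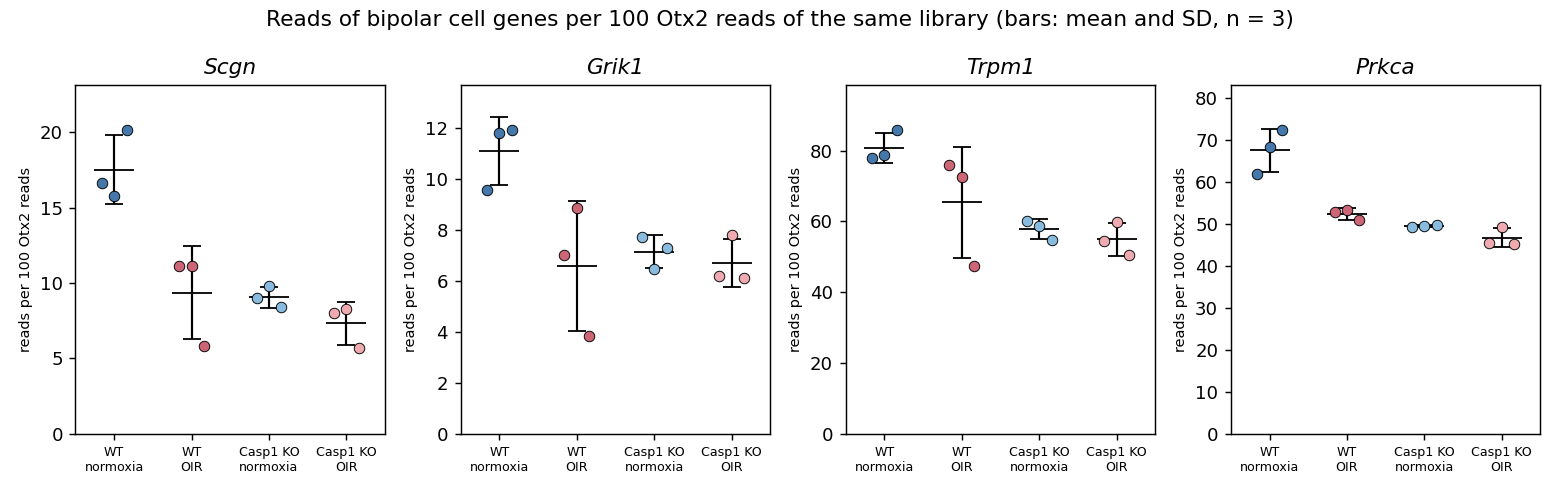
Reads of Scgn, Grik1, Trpm1 and Prkca per 100 reads of Otx2 in the same library (linear axes from 0), by group as labelled, with a point for each library and bars for the mean and SD of 3 libraries. In each panel the 3 WT normoxia libraries stand above the other 9, for Scgn at 15.8 to 20.1 against at most 11.1.

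A further 48 genes of bipolar cells were listed: 10 of the mGluR6 cascade, 12 transcription factors, 23 genes of subtypes and 3 subunits of GABA receptors. In WT, OIR against normoxia, 8 of the 48 were called lower and 1 higher, beside 2.29% and 1.58% of all genes tested. Their median change was -0.36 on the log2 scale. Cck, a neuropeptide gene that amacrine cells express too, had 21.5, 28.9 and 16.3 CPM in WT normoxia and 3.43, 2.03 and 1.999 CPM in WT OIR. All 3 OIR libraries lay far below, and edgeR gave a change of -3.21 on the log2 scale, with a standard error of 0.37 and an adjusted p of 1.019e-14. Chrm2, a muscarinic receptor gene, and Gng13, the G protein gamma subunit of ON bipolar cells, changed by -1.26 and -1.22 (adjusted p = 0.000545 and 0.00256). Without WT OIR replicate 1 the adjusted p of Gng13 was 0.0806. Nnat, a gene of a small membrane protein, was the one called higher, at 134.8, 133.7 and 133.3 CPM in WT normoxia and 213, 199.8 and 229.7 CPM in WT OIR (log2 fold change 0.67, adjusted p = 0.000109).

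In Casp1 KO, OIR against normoxia, 5 of the 48 were called higher and 2 lower, beside 2.61% and 2.03% of all genes tested. Nnat rose here too, from 160.4, 143.5 and 158 CPM to 217, 233 and 181 CPM, a change of 0.46 (adjusted p = 0.000192, edgeR). Gnb5 and Rgs7 encode the G protein beta subunit and the regulator that end the mGluR6 signal together, and in whole retina they changed in opposite directions. In Casp1 KO normoxia Gnb5 stood at 547 to 562 CPM and Rgs7 at 70.0 to 74.4 CPM. Which cells these reads came from was not tested. Gnb5 changed by 0.31 (adjusted p = 0.00188), which was lost with all 12 libraries in one fit (0.0869), and Rgs7 by -0.62 (adjusted p = 0.00207). Lhx4, a homeodomain factor of cone bipolar cells, had 32.5, 44.2 and 45.9 CPM in Casp1 KO normoxia and 57.6, 58.3 and 72.8 CPM in Casp1 KO OIR. Its change was 0.65 (SE 0.16) with adjusted p = 0.00271 in edgeR. The call was lost without Casp1 KO normoxia replicate 1 (0.127) or Casp1 KO OIR replicate 3 (0.0943). From which cells of the whole retina the reads of Lhx4 came was not tested either.

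Between genotypes in normoxia, 4 of the 48 were called lower in the libraries labelled Casp1 KO and 0 higher, beside 0.56% and 0.476% of all genes, and 6 were called in all by DESeq2. At an unadjusted p under 0.05, in either direction, there were 18 of 48, beside 8.63% of all genes. Neurod4, a factor of bipolar cell formation, had 136, 169.6 and 154 CPM in Casp1 KO normoxia and 218, 221 and 196 CPM in WT normoxia. It changed by -0.47 (SE 0.0956, adjusted p of 0.000341 from edgeR) and kept its call in each fit. Lhx4 changed by -0.69 (adjusted p = 0.00199) and Car8, a gene of rod bipolar cells, by -0.48 (0.0394). The call of Lhx4 was lost without Casp1 KO normoxia replicate 1 (0.139). That of Car8 was lost with all 12 libraries in one fit (0.174) and with most libraries left out.

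In OIR, 0 of the 48 were called between genotypes by edgeR and 0 by DESeq2, beside 0.575% of all genes called by edgeR. At an unadjusted p under 0.05 there were 7 of 48, beside 8.36% of all genes. In the interaction term, 3 of the 48 passed, all with a higher change in Casp1 KO, beside 0.604% of all genes. Lhx4 had an interaction of 0.99 (SE 0.24, adjusted p of 0.00649 from edgeR), with a change of -0.37 in WT (adjusted p = 0.326) against 0.65 in Casp1 KO. For Cck the interaction was 2.01 (adjusted p = 0.0168), with -1.17 in Casp1 KO (adjusted p = 0.0317). Both of these interactions were lost when some single libraries were left out, with adjusted p up to 0.0898 for Lhx4 and 0.126 for Cck.

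**Figure D4:**
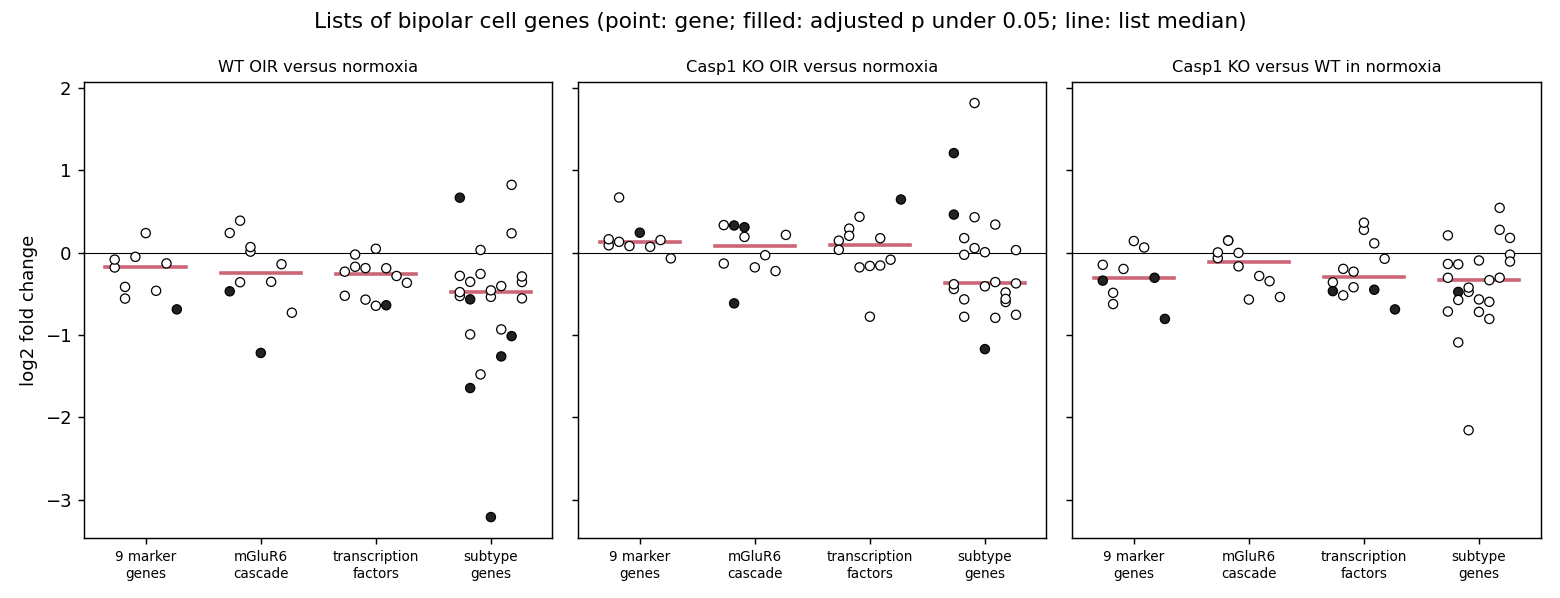
Fitted log2 fold change of each gene (points, filled where the adjusted p was under 0.05) in the 9 marker genes and in 3 further lists of bipolar cell genes, with a line at the median of each list, for 3 comparisons of groups as labelled. The median of the 9 marker genes lies at -0.18 in WT OIR, at 0.13 in Casp1 KO OIR and at -0.31 between genotypes in normoxia.

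The mean pattern of the 9 members over the 12 libraries, as log2 CPM centred on each gene's own mean, ran from 0.27 in WT normoxia replicate 2 to -0.19 in Casp1 KO normoxia replicate 1. Among 11039 genes, the 5 others nearest to this pattern were Sos1, Agap1, Rab3gap1, Syt1 and Aig1, with a root mean square difference of 0.0662 to 0.0815 on the log2 scale over the 12 libraries. Of the members, Prkca lay nearest to it (0.111, rank 44) and Pcp2 farthest (0.404, rank 8148). This distance holds counting error, which is larger for a gene of few reads such as Pcp2, and each member is itself part of the mean.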

How the data were processed

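Retinal RNA of 12 libraries was made into QuantSeq 3′ libraries. Per the paper's methods, the authors aligned the reads to mm10 with STAR and took gene counts with htseq-count, and the deposited counts are whole reads per gene symbol, without normalization. The submitters' processing notes name STAR 2.7.5a and HTSeq 0.6.1. The gene annotation and strand setting are not given in the sources used here. No molecular identifiers are described, so depth limits cover counting error only, and 3 reads equalled 0.134 to 0.871 CPM.

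Groups followed the labels. Counts were fitted in R 4.3.3 with edgeR 4.0.16 (TMM, glmQLFit, glmQLFTest, all genes with 1 count or more among the fitted libraries), each comparison of 2 groups in its own 6 libraries and the interaction in all 12, with Benjamini-Hochberg adjustment over all genes tested and a threshold of 0.05. A standard error is the size of the log2 fold change over the root of its F, and 95% intervals are 1.96 standard errors wide on each side. Alternatives were DESeq2 1.42.0 or its size factors, filterByExpr, at least 10 counts in every library, a block for replicate number, a single fit to all 12 libraries, and each library left out. Beside the members, the up to 4 listed genes with the smallest p among those called were named per comparison, and the 5 genes nearest to the members' mean pattern. The members, lists and tests were chosen with earlier results of these data known. Of the genes named by the rule on the smallest p, 1 is not reported here.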

Additional observations from a re-analysis of the deposited data

How the results depend on the processing

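In the alternative fits of all libraries, 334 of 348 log2 fold changes of single genes kept their direction and their side of the threshold, 14 lost their call and 0 changed sign. With 1 library left out, 364 of 432 did so, 42 lost their call, 2 gained it and 24 changed sign. The genes that changed sign were uncalled, and their ranges with 1 library left out, on the log2 scale, were as follows. In WT, OIR against normoxia, Grm6 ranged from -0.16 to 0.19, Cabp5 from -0.41 to 0.0043 and Trpm1 from -0.23 to 0.057. In Casp1 KO, Pcp2 ranged from -0.19 to 0.46, Grm6 from -0.069 to 0.20 and Scgn from -0.18 to 0.042. Between genotypes in normoxia, Pcp2 ranged from -0.34 to 0.33 and Grm6 from -0.33 to 0.044. Between genotypes in OIR, Trpm1 ranged from -0.25 to 0.021, Cabp5 from -0.092 to 0.34, Prkca from -0.11 to 0.0050, Grik1 from -0.052 to 0.37 and Grm6 from -0.22 to 0.0020. In the interaction, Grm6 ranged from -0.12 to 0.23 and Otx2 from -0.087 to 0.046.

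The number of members called in Casp1 KO, OIR against normoxia, was 0 with DESeq2's size factors and 0 with all 12 libraries in one fit. Between genotypes in normoxia it was 1 with all 12 libraries. With 1 library left out it ranged from 0 to 2 in WT OIR against normoxia, from 0 to 1 in Casp1 KO, from 1 to 3 between genotypes in normoxia and from 0 to 1 in the interaction. Of the 48 other bipolar genes, 4 were called in Casp1 KO OIR against normoxia with all 12 libraries (7 in the fit to 6), and 2 between genotypes in normoxia with filterByExpr, with the replicate block and with all 12 libraries (4 in the fit to 6). With 1 library left out, their number ranged from 4 to 7 in Casp1 KO OIR against normoxia, from 1 to 5 between genotypes in normoxia, from 0 to 2 between genotypes in OIR and from 0 to 5 in the interaction.

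Over all genes, filterByExpr moved the number called in WT OIR against normoxia from 886 to 586, between genotypes in OIR from 131 to 16, and in the interaction from 277 to 139. Keeping genes with 10 or more counts in all libraries moved the last pair to 17 and 152. All 12 libraries in one fit gave 642 in place of 1038 in Casp1 KO OIR, 109 in place of 233 between genotypes in normoxia and 255 in place of 131 in OIR, where DESeq2 gave 444 and 82. With 1 library left out the ranges were 545 to 1130 in WT OIR, 128 to 199 between genotypes in normoxia, 47 to 815 in OIR (the highest without WT OIR replicate 3) and 174 to 597 in the interaction.

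Libraries of the same replicate number did not deviate together, with correlations of -0.049 to 0.063 across genes, so the numbers were not taken as pairs. The fit with the replicate block called 1, 1, 2, 0 and 0 members in WT OIR, Casp1 KO OIR, between genotypes in normoxia, in OIR and in the interaction. At the depth of these libraries, Pcp2 with 16 to 100 reads had standard errors of 0.4973 to 0.761 on the log2 scale, so that only large differences of Pcp2 were detectable.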
